A study of Homo sapiens with 5 samples.

Results

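Chromosome 13 genes were followed at the level of their mRNA 3′ ends in HEK293T cells, a human embryonic kidney line, that carried or lacked a subunit of cleavage factor Im (CFIm). The members were all genes with a poly(A) site on chromosome 13 whose sites together held 20 or more reads over the 5 libraries. There were 278 such genes, out of 533 chromosome 13 genes with a listed site and 15530 genes at the same minimum over the whole genome. The chromosome was chosen by a measured value, its low median level in the CFIm68 knockout lines, so its levels in those lines are given below as a description, and where calls in those lines are counted nothing is read from them. The comparison of the CFIm59 knockout lines with the control was not used in the choice, but it shares the control library with the comparison that was.

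The libraries were 1 unedited HEK293T control, 2 lines in which CFIm59 (gene CPSF7) was knocked out with CRISPR/Cas9 and 2 lines in which CFIm68 (gene CPSF6) was knocked out in the same way. All 5 came from cells in the same medium. The labels call the lines of a genotype different cell lines. They do not say whether a line grew from 1 cell, which exon was edited or how the control culture relates to the lines. Each read marks an mRNA end next to its poly(A) tail, so a gene's reads were summed over its sites as its level. Levels are in CPM, a gene's reads rescaled to a common library total, after TMM scaling (trimmed mean of M-values), which sets the libraries so that most genes are level.

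CFIm is a 3′ end processing factor in which CFIm25 binds UGUA in the precursor RNA and pairs with CFIm59 or CFIm68, and it is known for promoting the use of distal poly(A) sites. Chromosome 13 is acrocentric: its genes lie on the long arm, with wide gene-poor stretches between them. The arm holds the tumour suppressors RB1 and BRCA2, the host gene of the miR-17-92 microRNA cluster, the paired collagen genes COL4A1 and COL4A2 and, near its end, cell cycle genes such as TFDP1, CUL4A and CDC16. Gene dosage means the number of gene copies per cell. These libraries hold RNA and no DNA, so more gene copies and more mRNA per copy cannot be told apart, nor can more cells with a transcript and more transcript per cell.

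Promoters are shown for 4 genes near the end of the long arm, whose mRNA levels were above the control in both CFIm59 lines in the results below. They run from 250 bases before to 50 bases after the start in RefSeq's GRCh38.p14 table. Capitals mark the GC box (GGGCGG or its reverse complement CCGCCC) and the CCAAT box (CCAAT or ATTGG), both read on either strand. IRS2 and FAM155A (NALF1 in RefSeq) had the largest rises in the CFIm59 lines among genes with enough reads to be named. FAM155A reached the read minimum only through those lines, which held 230 of its 234 reads. CUL4A and PCID2 are neighbours on opposite strands whose starts lie 476 bases apart and whose windows share 0 bases. By these starts each is transcribed toward the start of the other.
IRS2, chr13:109786534-109786833, minus strand: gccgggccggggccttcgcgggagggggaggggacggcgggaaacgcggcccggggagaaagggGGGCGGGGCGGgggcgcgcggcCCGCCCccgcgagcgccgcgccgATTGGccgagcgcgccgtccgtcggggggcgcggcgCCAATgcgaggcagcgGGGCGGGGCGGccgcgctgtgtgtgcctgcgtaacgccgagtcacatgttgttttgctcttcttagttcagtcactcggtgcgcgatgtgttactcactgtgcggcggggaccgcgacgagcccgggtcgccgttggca
FAM155A, chr13:107867447-107867746, minus strand: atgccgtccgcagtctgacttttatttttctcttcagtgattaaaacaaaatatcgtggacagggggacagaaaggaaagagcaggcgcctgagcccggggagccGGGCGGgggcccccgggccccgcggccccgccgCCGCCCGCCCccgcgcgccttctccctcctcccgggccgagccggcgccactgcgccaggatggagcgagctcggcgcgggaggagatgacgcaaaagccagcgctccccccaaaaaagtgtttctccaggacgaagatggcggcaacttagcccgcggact
CUL4A, chr13:113207943-113208242, plus strand: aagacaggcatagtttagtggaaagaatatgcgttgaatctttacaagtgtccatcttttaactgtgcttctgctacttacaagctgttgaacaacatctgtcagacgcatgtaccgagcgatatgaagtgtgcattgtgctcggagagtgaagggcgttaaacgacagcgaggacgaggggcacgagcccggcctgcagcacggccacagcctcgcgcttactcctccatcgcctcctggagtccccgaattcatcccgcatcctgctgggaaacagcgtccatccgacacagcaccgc
PCID2, chr13:113208620-113208919, minus strand: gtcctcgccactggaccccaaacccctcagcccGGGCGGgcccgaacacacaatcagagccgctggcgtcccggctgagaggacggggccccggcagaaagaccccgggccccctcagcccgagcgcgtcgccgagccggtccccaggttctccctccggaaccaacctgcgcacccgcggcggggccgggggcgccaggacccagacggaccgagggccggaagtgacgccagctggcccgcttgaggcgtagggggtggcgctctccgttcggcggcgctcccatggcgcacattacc
IRS2 held 5 GC boxes, some of them overlapping, and 2 CCAAT boxes. FAM155A held 3 GC boxes, PCID2 held 1, and CUL4A held neither motif in this window. A match is only a string of letters in the window.

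Of the 278 members, 221 had a promoter in the table, 12 of them under an older symbol. Among members with sites at 100 Mb or beyond, 43 of 47 matched, and their median GC content was 72.7% with 35 CpG dinucleotides. Among members below 100 Mb, 178 of 231 matched, with a median of 65.3% GC and 26 CpG. Over all 27305 promoters of the table the medians were 58.3% and 14. A GC box stood in 65.1% of promoters of the members beyond 100 Mb, in 61.2% of those below and in 44.6% of all promoters. The CCAAT box stood in 39.5%, 36.5% and 35.7%, and a TATA box (TATAAA or TTTATA) in 6.98%, 10.1% and 11.95%. These shares are descriptions, and the 100 Mb split was made after the profile had been seen. The members had to reach the read minimum, while the full table was not limited to genes that do. Whether the gap between them comes from that minimum was not tested.

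The 6 mature microRNAs below are processed from the transcript of MIR17HG, a member at 92.0 Mb in the files' hg19 positions. They are shown because all 6 are cut from this 1 host transcript, which was measured here; the microRNAs themselves were not. Coordinates are GRCh38.p14, plus strand, from RefSeq, and capitals mark the seed, bases 2 to 8.
hsa-miR-17-5p, chr13:91350618-91350640: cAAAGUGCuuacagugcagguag
hsa-miR-18a-5p, chr13:91350756-91350778: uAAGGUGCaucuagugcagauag
hsa-miR-19a-3p, chr13:91350939-91350961: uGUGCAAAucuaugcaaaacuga
hsa-miR-20a-5p, chr13:91351072-91351094: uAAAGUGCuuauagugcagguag
hsa-miR-19b-3p, chr13:91351245-91351267: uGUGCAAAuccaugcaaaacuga
hsa-miR-92a-3p, chr13:91351361-91351382: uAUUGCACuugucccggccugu
They fall into 4 seeds: miR-17 and miR-20a share AAAGUGC, miR-19a and miR-19b share GUGCAAA, and miR-18a and miR-92a each have their own. The host transcript MIR17HG had 20.9 CPM in the control, 27.4 and 32.9 CPM across the CFIm59 knockout lines, and 9.66 and 12.8 CPM in the CFIm68 knockout lines. Both CFIm59 lines lay above the control and both CFIm68 lines below it. The CFIm59 difference did not pass the test (log2 change 0.54, SE 0.34, adjusted p = 0.309, edgeR's quasi-likelihood test).

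The libraries held 1673687 to 2924266 reads, and the gene minimum of 20 reads sets the precision of single genes. The members held 41473 reads in the control, 21717 and 32937 across the CFIm59 lines, and 32691 and 22573 in the CFIm68 lines. CPSF6, the gene of CFIm68, had 119 CPM in the control, beside 47.6 and 45.4 CPM across the CFIm68 lines. CPSF7, the gene of CFIm59, had 59.4 CPM in the control, beside 67.97 and 55.1 CPM across the CFIm59 lines, so its 3′ end counts do not check that label. Of 8 genes fixed as HEK293T markers, 7 or 8 had reads in every library; IRS4 was the marker at 0, in both CFIm59 lines. The 8 markers summed to 1407 CPM in the control and to 697 to 909 CPM in the knockout lines, so the control stood above all 4 of them. Blood markers summed to at most 4.83 CPM in any library, fibroblast markers to 8.94 to 18.1 CPM, and liver markers to 26.5 CPM in the control and 0 to 4.11 CPM in the knockout lines. Whether these differences bear on the values below was not tested.

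In the control, chromosome 13 sites made up 1.42% of all reads (Wilson 95% interval 1.41 to 1.44). The share was 1.31% (1.29 to 1.32) and 1.28% (1.27 to 1.30) in the CFIm59 lines. It was 1.21% (1.19 to 1.22) and 1.09% (1.08 to 1.11) in the CFIm68 lines, the lowest of the 5 libraries. The intervals cover counting error only. The genes RPL21 and TPT1 weigh in these shares. RPL21 held 6853 of 41654 chromosome 13 reads in the control. It held 1776 of 21846 and 3378 of 33189 in the CFIm59 lines, and 3269 of 32927 and 2105 of 22717 in the CFIm68 lines. The main site of TPT1 held 6082 reads in the control, 2002 and 2914 across the CFIm59 lines, and 4796 and 3369 in the CFIm68 lines. The shares therefore do not give the direction of the typical gene. Mitochondrial reads, which count in the total, took 6.01% to 10.8% of the libraries and were lowest in CFIm68 line 2.

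The median chromosome 13 gene was lower than in the control in both CFIm68 lines and near the control in both CFIm59 lines. For each gene a log2 ratio to the control was taken with 1 CPM added to both sides, which understates the change of low genes. The member median was -0.23 in CFIm68 line 1 and -0.40 in line 2, and -0.33 (quartiles -0.70 to 0.06) for the mean of the lines. In the CFIm59 lines it was 0.02 and 0.08, and 0.04 (quartiles -0.54 to 0.52) for their mean. Genes of the other chromosomes had medians of 0.01 in the CFIm68 lines and 0.00 in the CFIm59 lines. Of the 278 members, 200 lay below the control in the mean of the CFIm68 lines, which is 71.9%, against 48.7% of genes on other chromosomes. In the CFIm59 lines it was 132, or 47.5%, against 50.02%.

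Among the 23 chromosomes with 50 or more genes, chromosome 13 had the lowest median in the CFIm68 lines, as its choice required, and chromosome 10 came next at -0.17. Both CFIm68 lines lay below the control for 169 members, where 36.2% of all genes did so, and both lay above it for 46, where 37.7% of all genes did so. In the CFIm59 lines both lay above the control for 120 members and both below for 107, against 39.5% and 39.9% of all genes. Line 2 of the CFIm68 knockout was the lower of the pair for 181 of 278 members, with a median difference of 0.23 between the lines that does not involve the control. Line 1 was the lower for 34.9% of members, against 49.2% of genes on other chromosomes, whose median difference was 0.005.

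**Figure D1:**
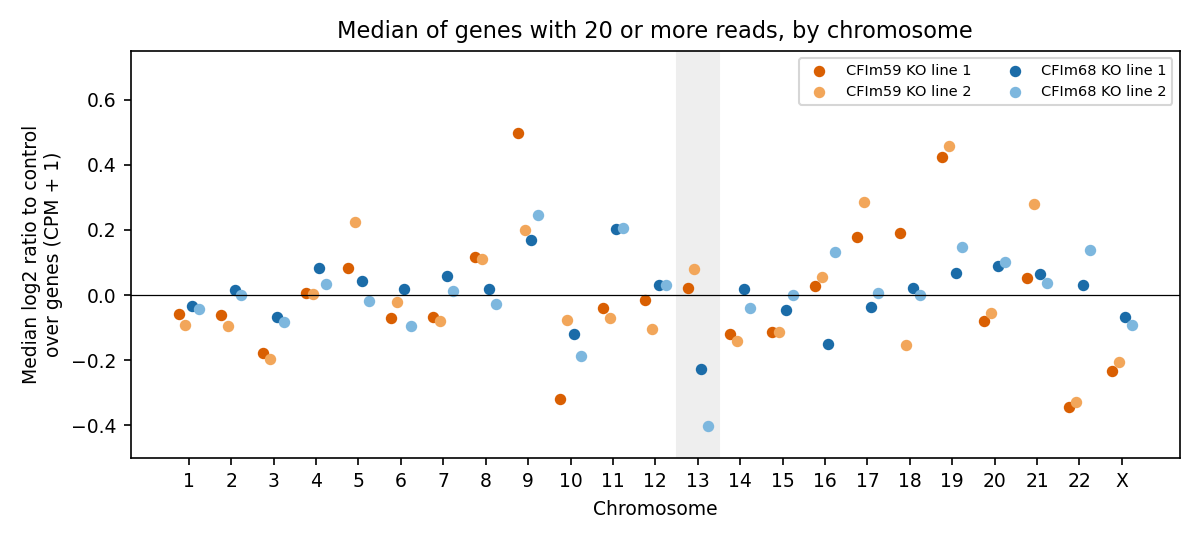
Median log2 ratio to the control over genes with 20 or more reads (y axis, CPM + 1), by chromosome (x axis), with 1 point for each knockout line and chromosome 13 shaded. The CFIm68 lines stood at -0.23 and -0.40 on chromosome 13, and the CFIm59 lines at 0.02 and 0.08.

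The whole-arm median hid a profile that changed with position. Each gene was placed at its site with most reads, in the files' hg19 coordinates, and medians were taken in windows of 10 Mb. In the CFIm59 lines the window medians ran from -0.64 at 40 to 50 Mb to 1.36 at 110 to 120 Mb, over windows of 20 or more genes. In the CFIm68 lines they ran from -0.08 at 30 to 40 Mb to -0.71 at 110 to 120 Mb. The last window thus held both the highest CFIm59 median and the lowest CFIm68 median of the chromosome.

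From 20 to 30 Mb, 57 genes had medians of 0.23 and 0.18 in the CFIm59 lines and -0.20 and -0.49 in the CFIm68 lines. From 30 to 40 Mb, 33 genes had -0.24 and -0.36 in the CFIm59 lines, and 0.11 and -0.26 in the CFIm68 lines, which lay on either side of the control. From 40 to 50 Mb, 52 genes had -0.67 and -0.59 in the CFIm59 lines and -0.09 and -0.46 in the CFIm68 lines. Here both CFIm59 medians lay below both CFIm68 medians, the reverse of the order at the end of the arm.

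From 50 to 60 Mb, 32 genes had -0.03 and -0.12 in the CFIm59 lines and -0.43 and -0.69 in the CFIm68 lines. From 70 to 80 Mb, 25 genes had 0.12 and -0.04, and -0.21 and -0.27. From 90 to 100 Mb, 22 genes had -0.27 and -0.16, and -0.50 and -0.41. The windows at 60 to 70 Mb and 80 to 90 Mb held 4 and 5 genes and are not described.

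From 100 to 110 Mb, 20 genes had medians of 0.43 and 0.95 in the CFIm59 lines and -0.43 and -0.39 in the CFIm68 lines. From 110 to 120 Mb, 27 genes had 1.19 and 1.30 in the CFIm59 lines, a 2.56-fold higher level for the mean of the lines (log2 quartiles 0.90 to 1.46). The same 27 genes had -0.79 and -0.69 in the CFIm68 lines, 0.61 of the control level (quartiles -0.87 to -0.37). Set against each other, the CFIm68 lines stood at 0.28 of the CFIm59 lines there. In windows of 5 Mb, an alternative added after the data had been seen, the CFIm59 median was -0.49 over 20 genes at 95 to 100 Mb, 0.36 over 15 genes in the next window and 1.27 over 24 genes at 110 to 115 Mb. The windows just before 110 Mb and just before 120 Mb held 5 and 3 genes and are not described.

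**Figure D2:**
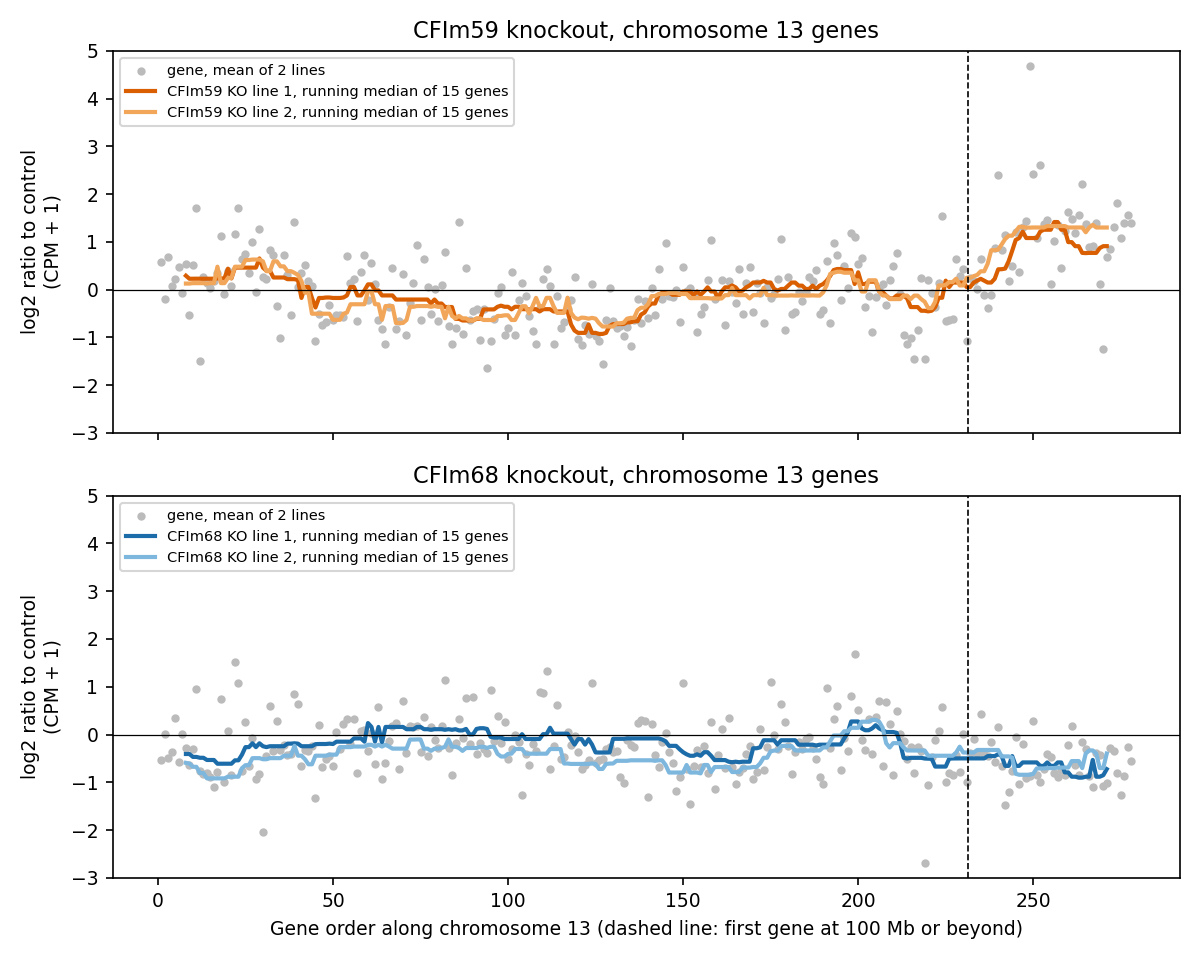
Log2 ratio to the control (y axis, CPM + 1) of the 278 chromosome 13 genes in their order along the arm (x axis), for CFIm59 lines above and CFIm68 lines below. Grey points are genes as the mean of 2 lines, coloured lines are running medians over 15 genes for each line, and the dashed line marks the first gene at 100 Mb or beyond. Past it the CFIm59 medians rose to above 1 while the CFIm68 medians lay below 0.

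The same windows on the other chromosomes give a scale for the CFIm59 values. Of 255 windows with 20 or more genes elsewhere, 0 had a CFIm59 median as high as the 110 to 120 Mb window (their highest was 1.28). The 100 to 110 Mb window was reached by 4 of the 255, and the 40 to 50 Mb window had 4 others as low. Neighbouring genes share a window and are not independent, so these are counts without a test.

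Expression was then tested for single genes between the CFIm59 lines and the control. The CFIm59 lines played no part in the choice of the chromosome, but the same control library did, so the contrast is not independent of that choice. Of the 278 members, 257 passed the filter on low counts, and a gene was called at an adjusted p under 0.05 (edgeR's quasi-likelihood test, Benjamini-Hochberg over all 14635 genes). There were 29 higher members, or 11.3%, beside 6.98% of all genes tested, and 23 lower members, or 8.95%, beside 6.87%. The calls were also counted on either side of 100 Mb, a split made after the profile of these same lines had been seen. Counts by this split are therefore a description and no test of position. At 100 Mb and beyond, 27 of 47 genes were higher and 0 lower, while below 100 Mb 2 of 210 tested genes were higher and 23 lower. Of the 29 higher members, FAM155A, NALCN and the antisense gene MCF2L-AS1 held 4 or 5 reads outside the CFIm59 lines. These 3 reached the minimum of 20 reads only through the group where they are high, and without them 26 higher members remain, 24 of them beyond 100 Mb. With DESeq2 the counts on chromosome 13 were 16 higher and 6 lower, and at 100 Mb and beyond 15 higher and 0 lower. The shares of all genes given above are those of the edgeR fit on all libraries. No such share is given for DESeq2 or for fits without a line, so their counts have no base here. Without CFIm59 line 1 or line 2 the lower members numbered 14 and 13, and without line 2 the higher members beyond 100 Mb numbered 18.

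Beyond 100 Mb, both CFIm59 lines lay above the control for 39 of 47 genes, beside 39.5% of all genes with 20 or more reads. Both CFIm68 lines lay below it for 40, beside 36.2%. In the last window the counts were 24 and 25 of 27, and 22 genes did both, where 7.57% of all genes with 20 or more reads did so. These counts are a description, since low CFIm68 levels picked the chromosome and the 100 Mb split followed the profile. Both comparisons use the 1 control library. Summed over the genes beyond 100 Mb, the control held 1440 CPM, the CFIm59 lines 2798 and 3346 CPM, and the CFIm68 lines 898 and 1072 CPM. Each CFIm59 line thus held more than both CFIm68 lines together. The CFIm59 lines differed in the size of the rise. Beyond 100 Mb line 1 lay above line 2 in 13 of 47 genes, with a median log2 difference of -0.37 (line 1 less line 2). Below 100 Mb it did so in 119 of 231 genes, with a median of 0.02. Below 100 Mb the sums were 14046 CPM in the control, 10150 and 10204 CPM across the CFIm59 lines, and 10383 and 8882 CPM in the CFIm68 lines, all 4 below the control. A few high genes weigh in these sums. RPL21 held 2559 CPM in the control, beside 1059 and 1390 CPM across the CFIm59 lines. The main site of TPT1 held 2271 CPM, beside 1194 and 1199 CPM. The median log2 ratio of genes below 100 Mb was -0.10 in the CFIm59 lines and -0.30 in the CFIm68 lines.

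Among the signalling genes near the end of the arm, IRS2, an adaptor of the insulin receptor (main site at position 110406185), had 23 reads in the control, 94 and 144 across the CFIm59 lines, and 12 and 8 in the CFIm68 lines. These were 8.59 CPM in the control, 56.0 and 59.2 CPM across the CFIm59 lines, and 4.14 and 3.53 CPM in the CFIm68 lines. The 3 groups did not overlap. The CFIm59 lines were higher by a log2 change of 2.74 (SE 0.37, adjusted p = 2.51e-07).

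GAS6, a secreted ligand of the TAM receptor kinases, had 12.3 CPM in the control, 41.1 and 50.6 CPM across the CFIm59 lines, and 9.66 and 4.41 CPM in the CFIm68 lines. Its CFIm59 change was 1.90 (SE 0.37, adjusted p = 0.000205). ARHGEF7 and MCF2L, guanine nucleotide exchange factors, rose by 1.66 and 1.61 in the CFIm59 lines (adjusted p = 8.93e-05 and 0.00987). MCF2L missed the threshold with DESeq2 and without CFIm59 line 2. RASA3, a GTPase activator for Ras, had 9.34 CPM in the control, 17.9 and 24.3 CPM across the CFIm59 lines, and 2.42 and 4.41 CPM in the CFIm68 lines, with a CFIm59 change of 1.19 just outside the threshold (adjusted p = 0.0527).

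FAM155A, an auxiliary subunit of the NALCN sodium leak channel, had 3 reads in the control, 77 and 153 across the CFIm59 lines, and 1 and 0 in the CFIm68 lines. After scaling, the CFIm59 lines held 49.98 times the control, with an exact 95% counting interval of 16.9 to 244. With 230 of its 234 reads in the CFIm59 lines it reached the read minimum only through them, so the ratio is a description. No fold is given against the CFIm68 lines, where both counts were under 3 reads. NALCN itself, the channel pore, had 1 read in the control, 7 and 22 across the CFIm59 lines, and 4 and 0 in the CFIm68 lines. It too reached the read minimum only through the CFIm59 lines, and it was chosen for mention after its values were seen, as the partner of FAM155A.

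Cell cycle and ubiquitin genes of the last window moved with their neighbours. TFDP1, the dimer partner of E2F factors, had 127 CPM in the control, 319 and 313 CPM across the CFIm59 lines, and 89.7 and 109 CPM in the CFIm68 lines (CFIm59 change 1.32, SE 0.26, adjusted p = 0.000233). CDC16, a subunit of the anaphase-promoting complex, had 64.97 CPM, then 168 and 176 CPM, then 35.5 and 34.8 CPM in the same order (1.41, SE 0.27, adjusted p = 0.000157). For both genes the lines of a genotype lay close together and the 3 groups did not overlap.

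CUL4A, the scaffold of a cullin ubiquitin ligase, had 67.6 CPM in the control, 113 and 146 CPM across the CFIm59 lines, and 30.0 and 31.7 CPM in the CFIm68 lines. PCID2, a subunit of the mRNA export complex TREX-2 that starts beside CUL4A on the opposite strand, had 44.1 CPM, then 72.1 and 93.8 CPM, then 23.1 and 24.3 CPM. Their CFIm59 changes were 0.94 and 0.92 (adjusted p = 0.0123 and 0.0195), and both missed the threshold with DESeq2 (adjusted p = 0.101 and 0.198) and without CFIm59 line 2 (adjusted p = 0.133 and 0.179). These neighbours, whose promoters are printed above, thus had the same order of groups.

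The basement membrane collagens COL4A1 and COL4A2 lie head to head in the same window. COL4A1 had 26.9 CPM in the control, 73.3 and 69.1 CPM across the CFIm59 lines, and 17.6 and 14.6 CPM in the CFIm68 lines. COL4A2 had 41.1 CPM, then 128 and 102 CPM, then 30.7 and 30.9 CPM. Both rose in the CFIm59 lines, by 1.40 (adjusted p = 0.000705) and 1.48 (adjusted p = 0.00016).

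Genes of other roles rose in the CFIm59 lines too. LIG4, the ligase of non-homologous end joining, had 9 reads in the control, 33 and 61 across the CFIm59 lines, and 15 and 8 in the CFIm68 lines. These were 3.36 CPM in the control, 19.7 and 25.1 CPM across the CFIm59 lines, and 5.18 and 3.53 CPM in the CFIm68 lines. Both CFIm59 lines thus lay above the control, while CFIm68 line 2, with 8 reads beside 9, was about level with it. Its CFIm59 change was 2.73 (SE 0.51, adjusted p = 0.000124). UPF3A, a nonsense-mediated decay factor, rose by 1.64 (adjusted p = 0.00289), and missed the threshold with DESeq2. ARGLU1, a splicing and transcription cofactor, had 129 CPM in the control, 266 and 465 CPM across the CFIm59 lines, and 65.6 and 70.1 CPM in the CFIm68 lines, with the CFIm59 lines apart from each other and both above the control (1.51, SE 0.28, adjusted p = 0.000105).

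Some genes at the end of the arm did not follow. LAMP1, a lysosomal membrane protein, rose in the CFIm59 lines (63.9 CPM in the control, 173 and 165 CPM; change 1.40, adjusted p = 0.000576), while its CFIm68 lines stood on either side of the control at 34.2 and 69.7 CPM. ADPRHL1, with 33 reads in all, was the 1 gene of the last window below the control in both CFIm59 lines, at 5.23 CPM in the control and 0.60 and 3.29 CPM (adjusted p = 0.351). RAB20 and GRTP1 had 1 CFIm59 line on each side of the control. Nearer to 100 Mb, UBAC2, TM9SF2 and the zinc finger gene ZIC2 had CFIm59 changes of 0.24, 0.19 and -0.10, none past the threshold.

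Below 100 Mb the called genes were mostly lower in the CFIm59 lines. The 40 to 50 Mb window held 11 of the 23 lower members and 0 higher ones among 47 tested genes. Over all genes tested, 6.87% were lower and 6.98% higher. Both CFIm59 lines lay below the control for 36 of the window's 52 genes, beside 39.9% of all genes with 20 or more reads. MRPS31, a protein of the small mitochondrial ribosomal subunit, had 40.7 CPM in the control, 14.9 and 10.3 CPM across the CFIm59 lines, and 39.3 and 24.3 CPM in the CFIm68 lines. It had the largest drop of the named genes, with a change of -1.72 (SE 0.34, adjusted p = 0.000282). GTF2F2, a subunit of the initiation factor TFIIF, had 89.6 CPM, then 36.4 and 43.6 CPM, then 56.3 and 51.6 CPM (-1.15, SE 0.26, adjusted p = 0.00146).

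COG3, a Golgi tethering subunit, had 26.1 CPM in the control, 5.96 and 11.1 CPM across the CFIm59 lines, and 24.5 and 13.2 CPM in the CFIm68 lines (-1.56, adjusted p = 0.0048). DGKH, a diacylglycerol kinase, fell by 1.20 on the log2 scale (adjusted p = 0.0161). Both missed the threshold with DESeq2 and without CFIm59 line 1, and DGKH also without line 2. TPT1, the translationally controlled tumour protein, had 2291 CPM in the control, 1204 and 1213 CPM across the CFIm59 lines, and 1678 and 1504 CPM in the CFIm68 lines (-0.92, SE 0.22, adjusted p = 0.00292). The snoRNA gene SNORA31 was called too, but 99.7% of its reads lie at a site also listed under TPT1, so its call adds nothing of its own.

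Outside that window EXOSC8, a subunit of the RNA exosome at 37.6 Mb, had 119 CPM in the control, 58.4 and 49.8 CPM across the CFIm59 lines, and 72.5 and 60.9 CPM in the CFIm68 lines (-1.15, SE 0.26, adjusted p = 0.00118). RPL21, a ribosomal protein, had 2559 CPM, then 1059 and 1390 CPM, then 1128 and 928 CPM (-1.06, SE 0.23, adjusted p = 0.000836). HMGB1, a chromatin protein, had 678 CPM, then 425 and 345 CPM, then 420 and 299 CPM (-0.82, adjusted p = 0.0147), and missed the threshold with DESeq2 and without CFIm59 line 2. In these 3 genes all 4 knockout lines lay below the control. RPL21, TPT1 and HMGB1 have many processed copies in the genome, so reads could be split among them.

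N6AMT2 at 21.3 Mb and TGDS at 95.2 Mb were the other named lower genes, with changes of -1.61 and -1.17 (adjusted p = 0.0089 and 0.00876), and both missed the threshold with DESeq2. Below 100 Mb only SLAIN1 and HS6ST3 were called higher. SLAIN1, a microtubule plus-end protein at 78.3 Mb, had 42.2 CPM in the control, 107 and 87.2 CPM across the CFIm59 lines, and 74.2 and 74.5 CPM in the CFIm68 lines, so all 4 knockout lines lay above the control (CFIm59 change 1.20, SE 0.28, adjusted p = 0.00203). HS6ST3, a heparan sulfate sulfotransferase at 96.8 Mb, had 4.85 CPM, then 16.7 and 15.2 CPM, then 7.59 and 7.94 CPM (1.70, adjusted p = 0.0133, past the threshold with edgeR and not with DESeq2).

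The tumour suppressors of the arm were not called. RB1 had 32.5 CPM in the control, 31.0 and 23.9 CPM across the CFIm59 lines, and 53.1 and 29.5 CPM in the CFIm68 lines, which lay on either side of the control (CFIm59 change -0.26, SE 0.33, adjusted p = 0.654). BRCA2 had 26.5 CPM, then 17.9 and 15.2 CPM, then 19.7 and 12.3 CPM, with all knockout lines below the control (-0.69, SE 0.35, adjusted p = 0.196).

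The levels of the CFIm68 lines picked the chromosome, so the count of calls there is a description from which nothing is read. Of the 257 tested members 17 were called lower than the control; over all genes tested 2.02% were called lower and 1.58% higher. INTS6, an Integrator subunit at 51.9 Mb, had 25.02 CPM in the control, 21.5 and 21.8 CPM across the CFIm59 lines, and 8.97 and 12.8 CPM in the CFIm68 lines. KPNA3, an importin at 50.3 Mb, had 44.4 CPM, then 41.1 and 47.3 CPM, then 24.5 and 14.6 CPM. In both genes the CFIm68 lines stood apart below the other libraries.

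Several members went the other way in the CFIm68 lines. AKAP11, an anchoring protein for protein kinase A at 42.9 Mb, had 22.4 CPM in the control, 21.5 and 13.2 CPM across the CFIm59 lines, and 44.2 and 41.0 CPM in the CFIm68 lines. SPRY2, an inhibitor of receptor kinase signalling at 80.9 Mb, had 15.7 CPM, then 14.3 and 18.1 CPM, then 23.8 and 28.7 CPM. Both had CFIm68 lines above all other libraries. Between the knockouts, again with nothing read from it, 68 members were called lower and 15 higher in the CFIm68 than in the CFIm59 lines, where 10.3% and 9.44% of all genes tested were.

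Chromosome 13 genes were also counted in lists by role, read against the 6.98% of all genes tested that were higher and the 6.87% that were lower in the CFIm59 lines. The lists were drawn up by hand and are loose: signalling and cell surface genes include ARGLU1 and INTS6, transcription factor and chromatin genes include SPRY2 and TBC1D4, and DNA replication and repair genes include the small GTPase RAP2A. Among signalling and cell surface genes, 8 of 27 tested were higher, ARGLU1 among them, and 1 lower (median log2 change 0.66, beside 0.07 over all tested members and 0.02 over all 14635 genes), and 10 of the list's 29 members lie beyond 100 Mb. Of 18 RNA processing and translation genes 0 were higher and 4 lower, RPL21, EXOSC8, MRPS31 and TPT1 (median -0.42), and 0 of the list lies beyond 100 Mb. That 0 depends on how the list was drawn. ARGLU1, UPF3A and PCID2, described above with roles in RNA, lie beyond 100 Mb, were called higher and stand outside it. Of 15 genes of mitochondria and metabolism, 0 were higher and 4 lower. This 0 depends on the list as well. The list holds the heat shock protein HSPH1, while the mitochondrial MRPS31 is counted with the RNA genes. CARS2, a mitochondrial tRNA synthetase in the last window, stands on no list. Its last exon site had 47.4 CPM in the control, beside 131 and 120 CPM across the CFIm59 lines. Of 11 cell cycle genes, 2 were higher and 0 lower (TFDP1 and CDC16, both beyond 100 Mb), and of 5 extracellular matrix genes 2 were higher, COL4A1 and COL4A2. Of 7 DNA replication and repair genes 1 was higher, LIG4, and 1 lower. Of 19 ubiquitin and proteasome genes and 24 transcription factor and chromatin genes, 2 were higher and 2 lower in each list, where the shares of all genes would give 1 or 2 each way. No test was run on the lists, and with so few genes a count of 1 or 2 cannot be told from those shares.

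Poly(A) site use was compared between the 2 sites of a gene with most reads, the upstream one on the gene's strand being called proximal. On chromosome 13, 115 members entered, and their median share of proximal reads was 26.0% in the control, 22.2% and 21.6% across the CFIm59 lines, and 53.3% and 43.8% in the CFIm68 lines. Other genes had 34.6% in the control, 29.0% and 29.3%, and 50% and 47.2%. Against the control 1 member shifted to proximal and 6 to distal use in the CFIm59 lines, beside 0.988% and 5.06% of all 5869 genes tested. In the CFIm68 lines, again as a description, 40 shifted to proximal and 6 to distal use, beside 25% and 3.1%. Between the knockouts, 60 were more proximal and 5 more distal in the CFIm68 lines, beside 40.5% and 6.08%. With DESeq2 the CFIm59 counts were 0 and 1, TFDP1 being the 1 gene still called.

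In 4 of the 7 members with a CFIm59 shift the gene lies beyond 110 Mb and was also called higher in level, and all 4 moved to the distal site. At 100 Mb and beyond, 4 of 27 pairs were called, and below 100 Mb 3 of 88. In the last window 19 of 27 genes were called higher in level, so a called shift and a called rise in the same gene say little about a link. No link was tested. TFDP1 used its upstream site, at position 114240478, for 41.0% of the pair's reads in the control (Wilson 95% interval 35.1 to 47.2), 15.3% and 12.7% in the CFIm59 lines, and 60.3% and 64.6% in the CFIm68 lines (CFIm59 log2 change -2.11, adjusted p = 0.000635; with DESeq2 0.0385). The upstream site itself had 38.5 CPM in the control, beside 34.0 and 27.2 CPM across the CFIm59 lines. The downstream site, 55304 bases further at position 114295782, had 55.3 CPM in the control, 188 and 187 CPM across the CFIm59 lines, and 21.4 and 25.1 CPM in the CFIm68 lines. Within this pair, the rise of TFDP1 in the CFIm59 lines was thus found at the downstream site. The gene's other sites also count in its level and are not broken down here.

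CUL4A used its upstream site at 113884529 for 68.3% of reads in the control (59.6 to 75.9), 34.1% and 28.9% in the CFIm59 lines, and 84.8% in both CFIm68 lines (-2.25, adjusted p = 0.000648; not called with DESeq2). The upstream site had 31.4 CPM in the control, beside 26.2 and 29.6 CPM across the CFIm59 lines. The downstream site at 113919386 had 14.6 CPM, then 50.7 and 72.8 CPM, then 2.42 and 2.20 CPM in the CFIm68 lines. ANKRD10, an ankyrin repeat protein, used an intronic site at 111545044 for 57.1% of reads in the control (47.6 to 66.2), 25.5% and 21.3% in the CFIm59 lines, and 61.4% and 33.3% in the CFIm68 lines (-2.14, adjusted p = 0.00283; not called with DESeq2). Its last exon site at 111530887 had 16.8 CPM in the control, beside 71.5 and 69.9 CPM across the CFIm59 lines.

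TUBGCP3, a subunit of the gamma-tubulin complex, had 20.3% of its pair at the upstream site in the control (12.3 to 31.7) and 4.29% and 5.69% in the CFIm59 lines (adjusted p = 0.0386; lost without either CFIm59 line, and given no adjusted p by DESeq2). The sites of TFDP1, CUL4A and TUBGCP3 are all classed as last exon by the authors although the sites of a pair lie 34857 to 61474 bases apart. In other called genes of the last window such as CDC16, COL4A1 and LAMP1, the pair's use was not called in the CFIm59 lines: LAMP1 had 89.5% of the pair's reads at its proximal site in the control, beside 91.0% and 87.9% in the CFIm59 lines.

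**Figure D3:**
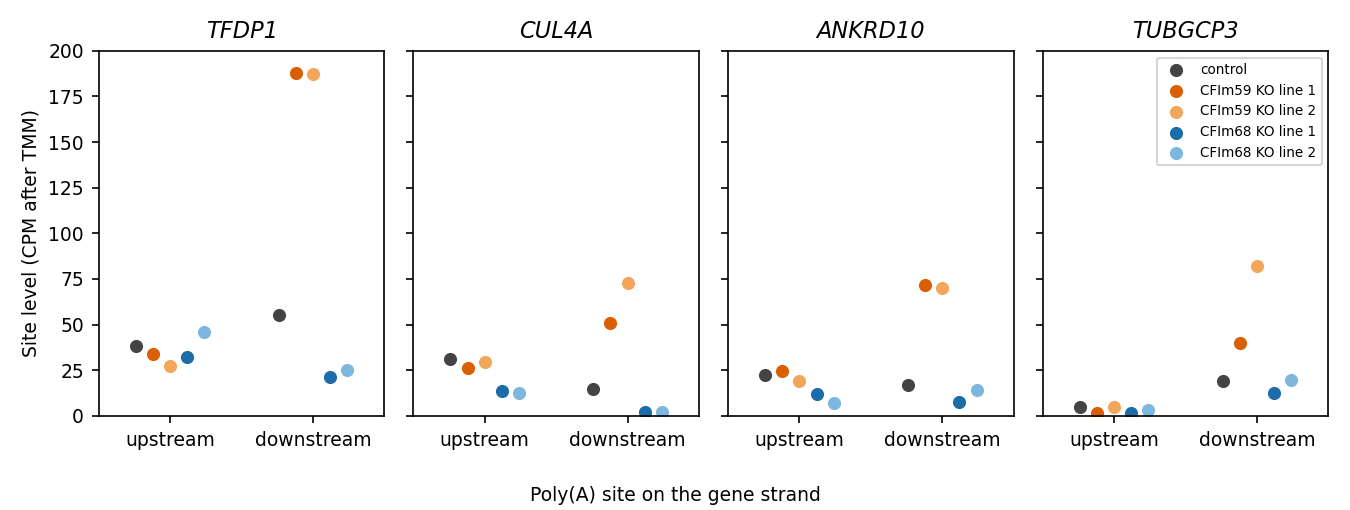
Level in CPM (y axis, from 0) of the upstream and downstream poly(A) site (x axis) of 4 genes at the end of the long arm, with 1 point for each library. The CFIm59 points stand near the control at the upstream sites and above it at the downstream sites.

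Below 100 Mb, SUCLA2, a subunit of succinyl-CoA ligase, was the 1 member called toward proximal use in the CFIm59 lines. Its upstream site lies in an intron, at position 48594420, and held 9.20% of the pair in the control, 38.2% and 21.4% in the CFIm59 lines, and 7.69% and 14.2% in the CFIm68 lines (2.01, adjusted p = 0.0181; not called with DESeq2 or without CFIm59 line 1). NDFIP2, an adaptor of Nedd4 family ubiquitin ligases, had 22.2% of its pair at the proximal site in the control, 6.52% and 7.94% in the CFIm59 lines, and 74.3% and 71.6% in the CFIm68 lines (adjusted p = 0.0284; not called with DESeq2 or without either CFIm59 line). UFM1, a ubiquitin-like modifier, went from 22.1% to 8.57% and 3.03% in the CFIm59 lines (adjusted p = 0.0364; not called without CFIm59 line 2, and given no adjusted p by DESeq2). In NDFIP2 the knockouts lay on opposite sides of the control.

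In the CFIm68 lines the largest proximal shifts of the members were in FOXO1, a forkhead transcription factor, and KPNA3. FOXO1 had 2 of 25 control reads at its proximal site, which is 8.00% (2.22 to 24.97), for 0 of 16 and 0 of 24 in the CFIm59 lines, and for 94.6% and 90.9% of reads in the CFIm68 lines. KPNA3 went from 3.30% to 73.2% and 68.8%. ZC3H13, a subunit of the m6A methyltransferase complex, went the other way, from 35.5% in the control to 15.7% and 13.04% in the CFIm68 lines, with 36.4% and 39.2% in the CFIm59 lines.

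At the read minimum, COX17P1 and DNAJC15 entered with 20 reads each over the 5 libraries, and LPAR6 and TPTE2P6 stayed out with 17 and 18. LPAR6, a lysophosphatidic acid receptor, had its reads in the CFIm59 lines, 3 and 14, with 0 in the control and in both CFIm68 lines. Of the members, 32 had a site that is also listed under another gene and 15 held over 50% of their reads at such sites, such as BIVM-ERCC5, whose reads lie at a site shared with ERCC5. Without those 15 members the chromosome medians moved by less than the spread between lines.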

How the data were processed

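Poly(A) site sequencing was done on 1 control library and 2 lines each of CFIm59 and CFIm68 knockout HEK293T cells. The authors deposited 1 table of raw counts of reads per poly(A) site, with a gene and a site class for each site, per the file headers. Positions are hg19, and TopHat2 2.1.0 and deepTools 2.4 are named without a role, per the submitters' processing notes. Site calling and the handling of priming at internal A stretches: not given in the sources used here. Such priming could add sites. No molecular identifiers were counted, so duplicates from amplification remain.

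Of 290072 site entries, 17824 were repeated listings with 0 reads and were dropped, which left 272248 sites. Sites on chromosome 13, 6524 of them between positions 19048244 and 115092796, were summed per gene. Expression was fitted with edgeR 4.0.16 (R 4.3.3; filterByExpr, TMM, quasi-likelihood test, 2-sided, Benjamini-Hochberg over 14635 genes), and every adjusted p is from edgeR unless DESeq2 1.42.0 is named. All 5 libraries shared 1 spread per gene, so the lone control was assumed to vary like the knockout lines, and p-values measure the spread between cell lines. Site use was fitted on proximal and distal counts with terms for library and for site within group. Pairs needed a mean of 20 reads per library and 5 per site. The common dispersion was 0.0218 for genes and 0.0173 for pairs. On simulated counts for the CFIm59 contrast (13990 genes) the fit recovered 28.9% of changes of 1 on the log2 scale and 86.6% of changes of 2. For site use (5869 genes) it recovered 51% of changes of 2.

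Named genes were, in each 10 Mb window, the 2 with most reads; up to 8 called genes each way for CFIm59 and 6 each way for the other contrasts and for site use, with a mean of 20 or more reads; up to 4 with most reads of each list; and the genes at the read minimum. Some genes this rule selects are not reported here. RB1, BRCA2, SNORA31, BIVM-ERCC5, PCID2, NALCN, MCF2L-AS1, RAP2A, ADPRHL1, RAB20, GRTP1, UBAC2, TM9SF2 and CARS2 were named outside that rule, after their values were seen. The members, windows and lists were chosen with earlier results of these data known. Alternatives were other scalings, filters, read minimums, last exon sites only, other site pairs, DESeq2 and leaving out each line.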

Additional observations from a re-analysis of the deposited data

How the results depend on the processing

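The chromosome 13 median of the CFIm68 lines kept its sign under every alternative run, from -0.40 to -0.11, and that of the CFIm59 lines lay within 0.13 of 0 on either side. Scaling by total counts without TMM moved the median of all genes to 0.22 (CFIm68 against control), 0.08 (CFIm59 against control) and 0.14 (CFIm68 against CFIm59), and the chromosome 13 medians to -0.11, 0.11 and -0.13. Chromosome 13 less all genes was then -0.33, 0.04 and -0.27. The CFIm59 median was -0.0353 and -0.129 with minimums of 100 and 500 reads, -0.0286 with last exon sites only and -0.0978 for genes below 100 Mb. Against CFIm59, the CFIm68 median was -0.0908 below 100 Mb. Leaving out a line gave 0.0221 to 0.0794 for CFIm59, -0.40 to -0.23 for CFIm68 and -0.33 to -0.13 between the knockouts.

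For expression calls, DESeq2 gave 16 higher and 6 lower members (CFIm59), 4 lower (CFIm68) and 3 higher (CFIm68 against CFIm59), in place of 29, 23, 17 and 15. For 0 higher members in the CFIm68 lines, no filter gave 1 and last exon sites 4. Leaving out a line gave 21 to 34 higher and 13 to 31 lower (CFIm59), 0 to 1 higher and 8 to 20 lower (CFIm68), and 2 to 22 higher between the knockouts. Of the 52 CFIm59 calls, 28 missed the threshold with DESeq2, 12 without CFIm59 line 1 and 18 without line 2. None of them changed sign under any setting run. The cause was not tested.

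For site use in CFIm59, proximal calls went from 1 to 0 with last exon sites, with higher minimums (100 reads per pair, 20 per site) and with DESeq2, and distal calls from 6 to 1 with DESeq2. For CFIm68, proximal calls went from 40 to 14 with higher minimums, which test fewer genes, and to 23 with DESeq2. Distal calls went from 6 to 2 with the outermost sites, 3 with last exon sites, 3 with higher minimums and 0 with DESeq2. Between the knockouts, proximal calls went from 60 to 17 with higher minimums. Distal calls went from 5 to 1 with the outermost sites, 3 with last exon sites and 2 with higher minimums. Leaving out a line gave 0 to 1 proximal and 4 to 8 distal (CFIm59), 3 to 6 distal (CFIm68) and 3 to 6 distal between the knockouts.

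Same-numbered lines of the knockouts did not deviate together (Pearson r = -0.02 across 14635 genes, which are not independent), so the numbers were not taken to pair them. With a replicate block on the 4 knockout libraries, 85 members were called between the knockouts, against 81 in the same libraries without it.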
